A study of Homo sapiens with 24 samples.

Results

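The 10 genes described here encode the glucose transporter SLC2A1 (GLUT1) and 9 enzymes of glycolysis: HK2, GPI, PFKP, PFKL, ALDOA, TPI1, PGK1, ENO1 and LDHA. They are 10 of 19775 genes with a probe set of their own on the array and of 14335 that passed the filter on low levels, a log2 level of at least 5 in at least 3 arrays. Each gene is read from the probe set, among those annotated to that gene alone, with the highest mean over all 24 arrays. HK2 is read from all 3 of its probe sets.

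The cells were BT-474, a breast cancer line of human origin with extra copies of ERBB2 that also expresses the estrogen receptor. ERBB2 encodes HER2, a receptor tyrosine kinase. A small interfering RNA (siRNA) targeted HER2 in 12 of the samples, the other 12 had a control siRNA, and each then got either estrogen at 10 nM or its vehicle, ethanol at 0.001%. The 8 groups of 3 arrays were HER2 siRNA estrogen 24 h, HER2 siRNA estrogen 4 h, HER2 siRNA vehicle 24 h and HER2 siRNA vehicle 4 h, and the same 4 conditions with control siRNA. All 8 groups share the transfection and the 1 cell line, and no untransfected cells were analysed here. Levels are log2 RMA values, and differences are given with their standard error from limma.

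Glycolysis splits glucose into pyruvate in the cytosol and yields ATP without oxygen. GLUT1 brings glucose across the membrane, hexokinase traps it as glucose 6-phosphate, phosphofructokinase commits it to the pathway, and lactate dehydrogenase turns pyruvate into lactate while regenerating NAD+. Cancer cells often run the pathway fast even with oxygen present. The genes of the pathway are known targets of the hypoxia-inducible factors (HIF) and of MYC, and receptor signalling through PI3K and AKT is known to raise glucose uptake.

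The promoters of 4 of the genes are shown first, because LDHA and PGK1 were lower after HER2 siRNA in every condition while SLC2A1 and HK2 moved with estrogen. GPI and ALDOA were also lower in every condition and are not shown. Each sequence is the 250 bases before the start site of the transcript, from RefSeq on GRCh38.p14, read 5′ to 3′ along the gene's strand. Capitals mark ACGTG and GCGTG, the core letters of the hypoxia response element, on either strand, so that their complements CACGT and CACGC are also in capitals. They were at chr11:18394313-18394562 (plus strand) for LDHA, chrX:78103998-78104247 (plus strand) for PGK1, chr1:42958869-42959118 (minus strand) for SLC2A1 and chr2:74833877-74834126 (plus strand) for HK2.
LDHA: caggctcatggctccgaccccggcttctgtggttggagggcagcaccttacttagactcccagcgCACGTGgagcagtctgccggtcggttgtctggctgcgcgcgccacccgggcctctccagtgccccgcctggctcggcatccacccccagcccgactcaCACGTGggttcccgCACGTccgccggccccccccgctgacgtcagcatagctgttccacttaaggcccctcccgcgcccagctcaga
PGK1: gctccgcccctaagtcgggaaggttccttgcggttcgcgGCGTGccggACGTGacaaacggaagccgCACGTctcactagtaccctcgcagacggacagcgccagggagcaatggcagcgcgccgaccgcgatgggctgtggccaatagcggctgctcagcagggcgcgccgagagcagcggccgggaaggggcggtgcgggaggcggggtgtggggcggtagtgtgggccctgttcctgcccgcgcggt
SLC2A1: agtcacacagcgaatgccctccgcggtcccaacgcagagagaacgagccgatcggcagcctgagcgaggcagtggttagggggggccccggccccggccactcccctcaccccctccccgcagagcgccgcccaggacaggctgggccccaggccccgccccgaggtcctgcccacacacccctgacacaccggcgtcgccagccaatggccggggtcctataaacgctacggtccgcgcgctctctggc
HK2: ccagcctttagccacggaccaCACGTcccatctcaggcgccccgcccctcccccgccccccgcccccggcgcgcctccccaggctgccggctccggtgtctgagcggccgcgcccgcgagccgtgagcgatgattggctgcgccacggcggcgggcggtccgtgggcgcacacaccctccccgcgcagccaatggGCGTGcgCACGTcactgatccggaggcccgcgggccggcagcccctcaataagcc

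The LDHA window held the palindrome CACGTG, the E-box read by MYC and its relatives, at 2 places, 185 and 87 bases before the start, and a further ACGTG core. PGK1 held 2 ACGTG cores and 1 GCGTG core, and the HK2 window shown held 2 and 1. The second HK2 window, not shown, also held CACGTG at 2 places, 194 and 149 bases before the start, and 2 GCGTG cores. The second LDHA window, not shown either, held 1 GCGTG core and no CACGTG. The SLC2A1 window held none of these letters. Over all 10 genes RefSeq gives 18 start site windows, since HK2, PFKP, ALDOA, TPI1 and LDHA have several starts. Either HIF core was present in 14 of these 18 windows, from 9 of 10 genes, against 43.2% of 35116 windows of all genes. ACGTG alone was in 10 windows against 18.5% of all windows, and CACGTG, which contains ACGTG on both strands, was in 3 against 6.34%. The members' windows were richer in G and C (median 71.2%, range 53.2% to 81.6%) than all windows (median 58%), and the part of base composition in these shares was not tested. No member window held the full palindrome of the estrogen response element (0.0399% of all windows), the E2F letters TTTCCCGC (1.39%) or TTTGGCGC (0.55%), or the FOXO letters GTAAACA (2.98%). All motifs were searched on both strands, and a match in these windows is a description of letters and not a binding site.

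The arrays were alike in their overall levels, with medians from 5.28 to 5.36 and correlations within a group from 0.991 to 0.997. ERBB2, the targeted gene, ranged from 11.86 through a median of 12.33 to 12.69 on the 12 arrays with HER2 siRNA, against 13.39 through 13.60 to 13.94 on the 12 with control siRNA. The groups did not overlap, and ERBB2 differed by -1.34 ± 0.06 on average (limma adjusted p = 1.11e-14). All 8 markers of luminal breast epithelium were above the minimum level of 5 on every array. Of 11 markers of fibroblasts, leukocytes and endothelium 4 were below it on every array (COL3A1, PTPRC, CD14 and CDH5) and 2 reached it on some, COL1A2 on 6 arrays and LYZ on 8. The other 5 reached it on all 24, with medians of 9.63 for COL1A1, 7.29 for VWF, 5.80 for PECAM1, 5.74 for DCN and 5.27 for CD3E. For HER2 siRNA estrogen 4 h replicate 3 the source name says 24 h while its other labels say 4 h, and 3 arrays of replicate 1 carry numbers apart from the rest. Whether the replicates came from separate cultures is not in the labels, and p-values here therefore cover just the spread among arrays, which may be technical. In bulk RNA, fewer cells of a kind and less RNA per cell cannot be told apart.

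HER2 siRNA lowered most of the pathway. Averaged over the 4 conditions, 9 of the 10 genes were lower and none was higher at an adjusted p under 0.05, where 29.1% of all tested genes were lower and 30.1% higher. SLC2A1 was the exception, although it was called as well with the replicate number as a block (-0.16, limma adjusted p = 0.0149). The median difference of the 10 genes was -0.31, while that of all 14335 genes was within 0.01 of 0. LDHA and GPI showed the largest falls of the 10, ALDOA and PGK1 intermediate ones, and HK2 the smallest among those past the threshold.

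**Figure D1:**
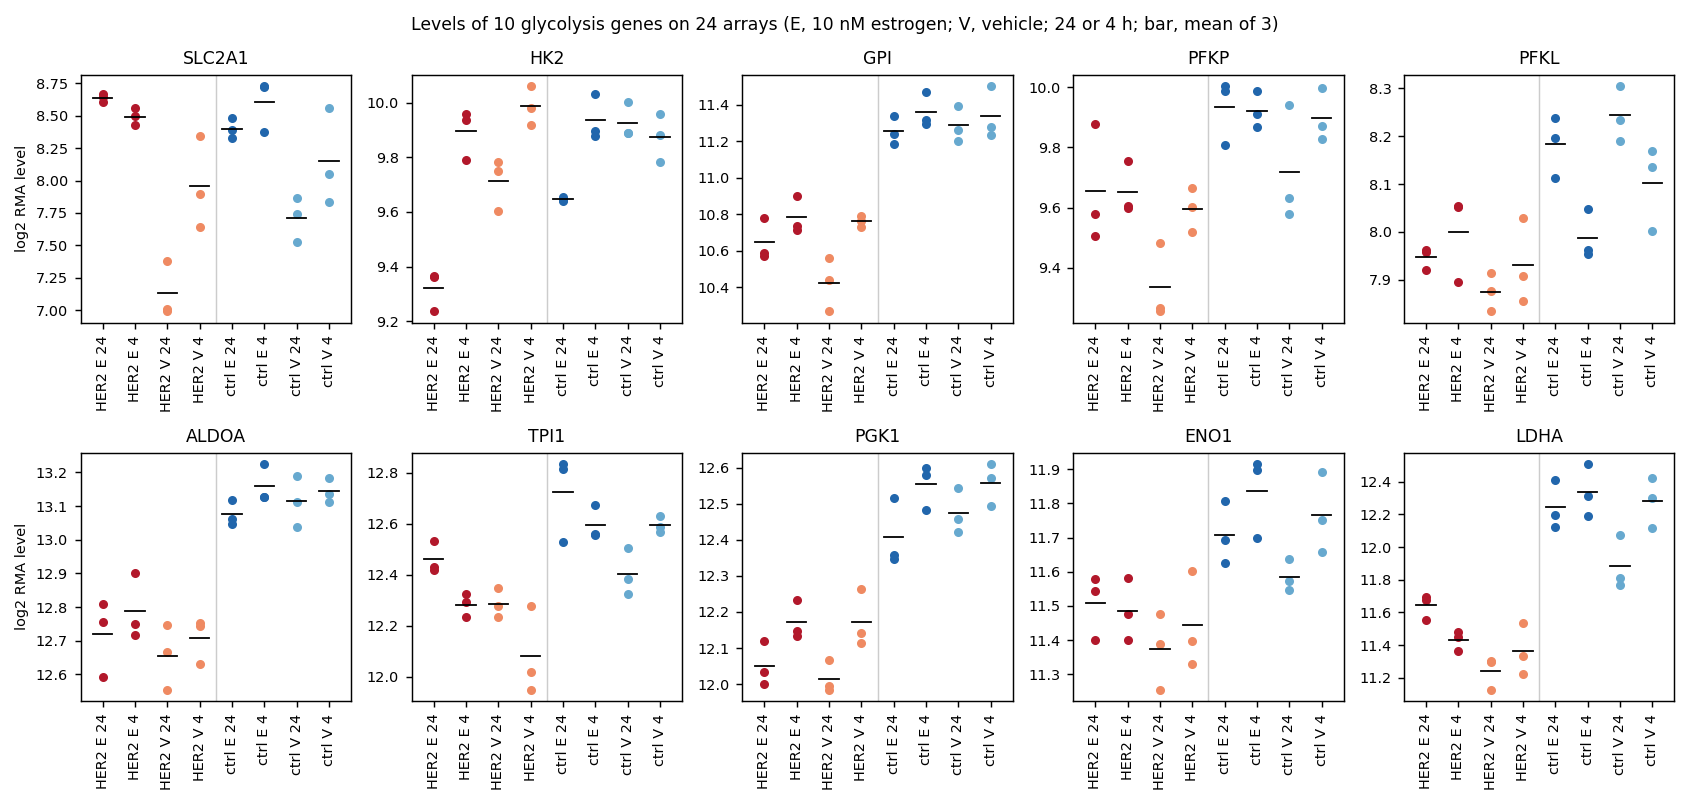
Log2 RMA level of each of the 10 genes on the 24 arrays, 1 panel per gene with its own scale; points are arrays, bars are means of 3, and HER2 siRNA groups stand left of control siRNA groups (E, estrogen; V, vehicle; 24 or 4 h). The 12 LDHA values with HER2 siRNA lie between 11.13 and 11.70, all below those with control siRNA, 11.77 to 12.51.

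GPI encodes the isomerase that turns glucose 6-phosphate into fructose 6-phosphate. It ranged from 10.27 through a median of 10.72 to 10.90 on the arrays with HER2 siRNA, against 11.19 through 11.28 to 11.50 with control siRNA. The arrays of the siRNAs did not overlap. GPI fell by 0.66 on average (SE 0.05, limma adjusted p = 4.06e-11), to 63.5% of the control siRNA level (59.4% to 67.8%). With vehicle at 24 h it measured 10.56, 10.44 and 10.27 with HER2 siRNA, against 11.20, 11.39 and 11.26 with control siRNA, a difference of -0.86 ± 0.09. In the other conditions the difference lay between -0.61 and -0.58.

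The phosphofructokinases carry out the committed step as mixed tetramers. PFKP, the platelet type, ranged from 9.25 through 9.59 to 9.88 with HER2 siRNA, against 9.58 through 9.89 to 10.01 with control siRNA, and PFKL, the liver type, from 7.83 through 7.92 to 8.05, against 7.95 through 8.15 to 8.31. The ranges overlapped in both genes. PFKP differed by -0.31 ± 0.05 and PFKL by -0.19 ± 0.03 on average (limma adjusted p = 2.09e-05 and 5.06e-05). PFKP was called in each condition, but with estrogen at 4 h it had an adjusted p of 0.0491, which lay above 0.05 without any of 17 of the 24 arrays in turn (0.0515 to 0.145). Its call in estrogen 24 h ended without control siRNA estrogen 24 h replicate 1 or 2 or HER2 siRNA estrogen 24 h replicate 1 or 3 (0.0983 to 0.167), and that in vehicle 4 h without control siRNA vehicle 4 h replicate 2 or HER2 siRNA vehicle 4 h replicate 1 or 3 (0.0607 to 0.108). With the mean of both PFKP probe sets the vehicle 4 h difference was -0.06 (0.519). PFKL fell in the vehicle 24 h condition (-0.37 ± 0.07) and in estrogen 24 h (-0.24 ± 0.07, and an adjusted p of 0.0582 in the fit that holds the GAPDH 3′ to 5′ ratio as a term), and differed by 0.01 ± 0.07 in estrogen 4 h. For vehicle 4 h its difference was -0.17 ± 0.07 (limma adjusted p = 0.0587), called without control siRNA vehicle 4 h replicate 3 (0.0299) or HER2 siRNA vehicle 4 h replicate 3 (0.0330).

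ALDOA, PGK1 and ENO1 act in the lower part of the pathway, where aldolase splits the phosphorylated sugar, phosphoglycerate kinase makes ATP and enolase forms phosphoenolpyruvate. ALDOA ranged from 12.55 through 12.74 to 12.90 with HER2 siRNA, against 13.04 through 13.12 to 13.22 with control siRNA, and PGK1 from 11.98 through 12.12 to 12.26, against 12.35 through 12.50 to 12.61. Neither gene had overlapping arrays. ALDOA differed by -0.41 ± 0.04 and PGK1 by -0.40 ± 0.03, which is 75.5% and 76.0% of the control siRNA level (limma adjusted p = 3.53e-09 and 1.37e-09). Both passed the threshold in each of the 4 conditions, with differences from -0.46 to -0.36. ENO1 ranged from 11.26 through 11.44 to 11.60 with HER2 siRNA, against 11.55 through 11.70 to 11.91 with control siRNA, and its ranges overlapped although the arrays did not overlap within any condition. It differed by -0.27 ± 0.04 on average (limma adjusted p = 1.78e-05), and by -0.20 to -0.35 within conditions. Its calls were made at 4 h, with estrogen (limma adjusted p = 0.00411) and with vehicle (0.00771, and 0.0522 without control siRNA vehicle 4 h replicate 2). At 24 h with vehicle it had an adjusted p of 0.0646, and of 0.0196 with the replicate number as a block, or 0.0414 without HER2 siRNA vehicle 24 h replicate 1. The mean of the ENO1 probe sets was called at 24 h, with estrogen (-0.29, 0.00172) and with vehicle (-0.24, 0.00843). Between times, the siRNA effect on ENO1 differed by 0.13 ± 0.09 and was not called (limma adjusted p = 0.510).

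TPI1, the isomerase that interconverts the triose phosphates, ranged from 11.95 through 12.28 to 12.53 with HER2 siRNA, against 12.32 through 12.56 to 12.83 with control siRNA. Its average difference was -0.30 ± 0.04 (limma adjusted p = 3.15e-06) although the ranges overlapped. With vehicle at 4 h it measured 12.02, 12.28 and 11.95 with HER2 siRNA, against 12.57, 12.63 and 12.58 with control siRNA, a fall of 0.51. With vehicle at 24 h the difference was -0.12 ± 0.09 and did not pass the threshold (limma adjusted p = 0.316). The mean of the 3 TPI1 probe sets did pass there, at -0.31 (0.000418). The call with estrogen at 24 h (-0.26 ± 0.09, 0.0180) ended without control siRNA estrogen 24 h replicate 1 or 3 or HER2 siRNA estrogen 24 h replicate 1 or 2 (0.0550 to 0.0923).

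LDHA encodes the A subunit of lactate dehydrogenase. It measured 11.56, 11.70 and 11.67 in HER2 siRNA estrogen 24 h, 11.45, 11.48 and 11.37 in HER2 siRNA estrogen 4 h, 11.30, 11.30 and 11.13 in HER2 siRNA vehicle 24 h and 11.53, 11.33 and 11.22 in HER2 siRNA vehicle 4 h. With control siRNA it measured 12.41, 12.20 and 12.13 in estrogen 24 h, 12.51, 12.31 and 12.19 in estrogen 4 h, 12.08, 11.81 and 11.77 in vehicle 24 h and 12.42, 12.30 and 12.12 in vehicle 4 h. Every array with HER2 siRNA was below every array with control siRNA. The average difference was -0.77 ± 0.05 (limma adjusted p = 4.62e-11), a level of 58.8% of that with control siRNA (95% interval 54.4% to 63.5%). By condition the difference was -0.60 ± 0.11 in estrogen 24 h, -0.90 ± 0.11 in estrogen 4 h, -0.64 ± 0.11 in vehicle 24 h and -0.92 ± 0.11 in vehicle 4 h. The fall was larger at 4 h in these values, but the difference between times, 0.29 ± 0.11, did not pass the threshold (limma adjusted p = 0.161). With the replicate number as a block the difference between times was called (0.0366). The deviations of same-numbered arrays from their group means did not all correlate over 0.1 between the siRNAs in estrogen 24 h (lowest 0.079).

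Of all tested genes, 8.69% had all 12 arrays with HER2 siRNA below all 12 with control siRNA. Among the 10 these were GPI, ALDOA, PGK1 and LDHA. Within each of the 4 conditions, all arrays with HER2 siRNA were below those with control siRNA in 13.5% of all genes and in 5 of the 10, these 4 and ENO1. Over the 8 group means, which come from the same arrays and share the siRNA difference, HK2 had Pearson correlations with the other 9 genes between -0.29 and 0.49, and SLC2A1 between -0.22 and 0.68. Those among the other 8 genes lay between 0.52 and 0.98.

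**Figure D2:**
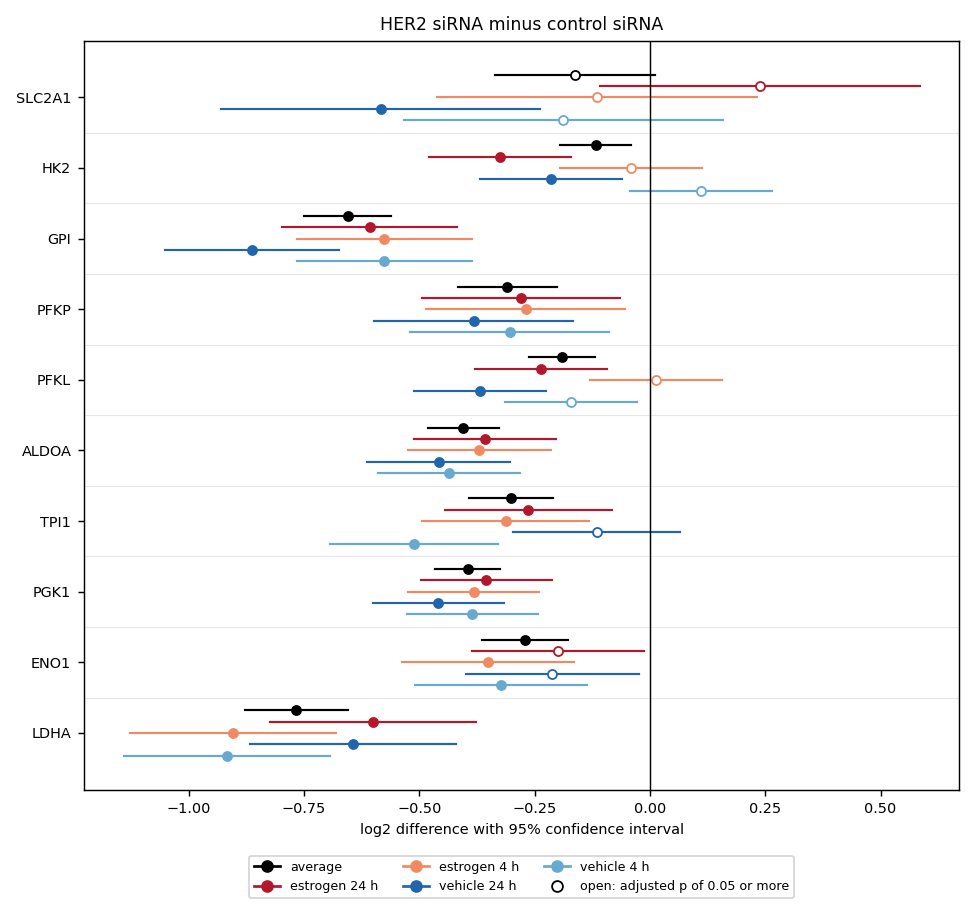
Log2 difference of HER2 siRNA minus control siRNA for each gene, on average (black) and in each of the 4 conditions, with 95% confidence intervals; filled points have an adjusted p under 0.05. LDHA, GPI, ALDOA, PGK1 and PFKP are filled in every condition, while SLC2A1 spans 0.24 in estrogen 24 h to -0.58 in vehicle 24 h.

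By condition, 8 of the 10 genes were lower in estrogen 24 h, where 20.5% of all genes were, 7 in estrogen 4 h (17.3%), 8 in vehicle 24 h (21.8%) and 7 in vehicle 4 h (17.8%). None was higher in any of the 4, where 21.5%, 16.8%, 19.7% and 16.5% of all genes were, in the same order. The averaged, 24 h and 4 h values rest on the same 24 arrays and are not independent. The log2 difference between the 3′ and 5′ control probe sets of GAPDH, a measure of RNA integrity and labelling, moved with the siRNA as well. It was 0.443 ± 0.060 with HER2 siRNA and 0.305 ± 0.066 with control siRNA (SD, n = 12 each), with ranges of 0.34 to 0.53 and 0.25 to 0.42. With this difference as a covariate the 9 genes were all still lower, by -0.82 to -0.19 (limma adjusted p from 4.50e-08 to 0.00956). GAPDH is itself an enzyme of glycolysis, and a covariate that moves with the siRNA cannot be told apart from it. The same measure for ACTB was 1.40 ± 0.33 with HER2 siRNA and 1.17 ± 0.29 with control siRNA (SD, n = 12 each).

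Other probe sets of the same genes were read as well. The 10 genes have 27 probe sets, 24 of them above the filter, and 14 of those were not the ones used above. In the averaged comparison 11 of the 14 were lower, none was higher and 3 did not pass the threshold, where 29.7% of all 26502 probe sets tested were lower. The 11 include the dimmest HK2 probe set, which passed the filter through arrays with control siRNA. Of the further PGK1 probe sets, 3 differed by -0.51 ± 0.04, -0.49 ± 0.05 and -0.41 ± 0.04. ENO1 varied more between its probe sets, with -0.60 ± 0.07 for one and -0.21 ± 0.05 for another. The 3 not called were the dimmer ones of PFKP (-0.01 ± 0.06) and PFKL (-0.08 ± 0.05) and one of PGK1 (-0.02 ± 0.08, mean level 4.91).

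SLC2A1 was higher with estrogen at 24 h with either siRNA. It measured 8.67, 8.65 and 8.61 in HER2 siRNA estrogen 24 h, against 7.38, 7.01 and 6.99 in HER2 siRNA vehicle 24 h, and 8.48, 8.39 and 8.33 in control siRNA estrogen 24 h, against 7.87, 7.75 and 7.53 in control siRNA vehicle 24 h. Estrogen and vehicle arrays did not overlap with either siRNA. Here and below, non-overlap of estrogen and vehicle arrays is a description, and its share over all genes was not counted. Estrogen raised it by 1.51 ± 0.17 with HER2 siRNA (limma adjusted p = 2.62e-06), which is 2.85-fold (95% interval 2.24 to 3.62), and by 0.69 ± 0.17 with control siRNA (0.00770), which is 1.61-fold (1.27 to 2.05). Of the 10 genes 3 were called with HER2 siRNA, where 6.17% of all genes were, and 4 with control siRNA, where 13.5% were. The estrogen effect was larger with HER2 siRNA by 0.82 ± 0.24 (95% interval 0.33 to 1.31). This difference did not pass the threshold over all genes (limma adjusted p = 0.345), where 0.0628% of genes were called (866 at an unadjusted p under 0.05), and at 4 h the difference was 0.07 ± 0.24 with 0% called (403 unadjusted). With the replicate number as a block the 24 h difference was called (0.0251). The deviations of same-numbered estrogen and vehicle arrays from their group means at 24 h all correlated over 0.1 with HER2 siRNA. With control siRNA they did not (lowest 0.057).

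At 4 h the SLC2A1 values were 8.56, 8.50 and 8.43 in HER2 siRNA estrogen 4 h, against 8.35, 7.90 and 7.64 in HER2 siRNA vehicle 4 h, and 8.72, 8.73 and 8.37 in control siRNA estrogen 4 h, against 8.56, 8.05 and 7.84 in control siRNA vehicle 4 h. Replicate 1 was the highest of the vehicle arrays with both siRNAs, and the estrogen and vehicle arrays overlapped with control siRNA only. The differences of 0.53 ± 0.17 with HER2 siRNA and 0.46 ± 0.17 with control siRNA did not pass the threshold (limma adjusted p = 0.282 and 0.810). Without HER2 siRNA vehicle 4 h replicate 1 the difference with HER2 siRNA was 0.73 (0.0493). With all arrays, limma called 0 of the 10 for estrogen at 4 h, where 0.698% of all genes were called with HER2 siRNA and 0.342% with control siRNA. At an unadjusted limma p under 0.05 these were 2 and 1 of the 10, beside 1062 and 562 of all 14335 tested genes.

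Ordered by mean, SLC2A1 stood at 8.64 ± 0.03 in HER2 siRNA estrogen 24 h, 8.61 ± 0.20 in control siRNA estrogen 4 h, 8.49 ± 0.07 in HER2 siRNA estrogen 4 h and 8.40 ± 0.08 in control siRNA estrogen 24 h (SD, n = 3 each). The vehicle groups followed with 8.15 ± 0.37 in control siRNA vehicle 4 h, 7.96 ± 0.36 in HER2 siRNA vehicle 4 h, 7.71 ± 0.17 in control siRNA vehicle 24 h and 7.13 ± 0.22 in HER2 siRNA vehicle 24 h. All 4 estrogen means were above all 4 vehicle means. Neighbours in this order differed by less than the larger of their SDs, except at 2 steps. These were HER2 siRNA estrogen 4 h over control siRNA estrogen 24 h, by slightly more, and HER2 siRNA vehicle 24 h, which lay below control siRNA vehicle 24 h with no overlap of arrays. HER2 siRNA lowered SLC2A1 in the vehicle 24 h condition alone among the 4 (-0.58 ± 0.17, limma adjusted p = 0.00714). With estrogen at 24 h its difference was 0.24 ± 0.17, with all 3 arrays of HER2 siRNA above those of control siRNA (0.279). The share of all genes with such arrays in this condition was not counted. With only the compared groups in the fit, SLC2A1 was called higher there (limma adjusted p = 0.0434). The averaged difference of -0.16 ± 0.08 had an adjusted p of 0.102. It passed without HER2 siRNA vehicle 24 h replicate 1 (0.0498), control siRNA vehicle 4 h replicate 3 (0.0372) or HER2 siRNA vehicle 4 h replicate 1 (0.0214). With the replicate number as a block the averaged difference passed too (0.0149).

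**Figure D3:**
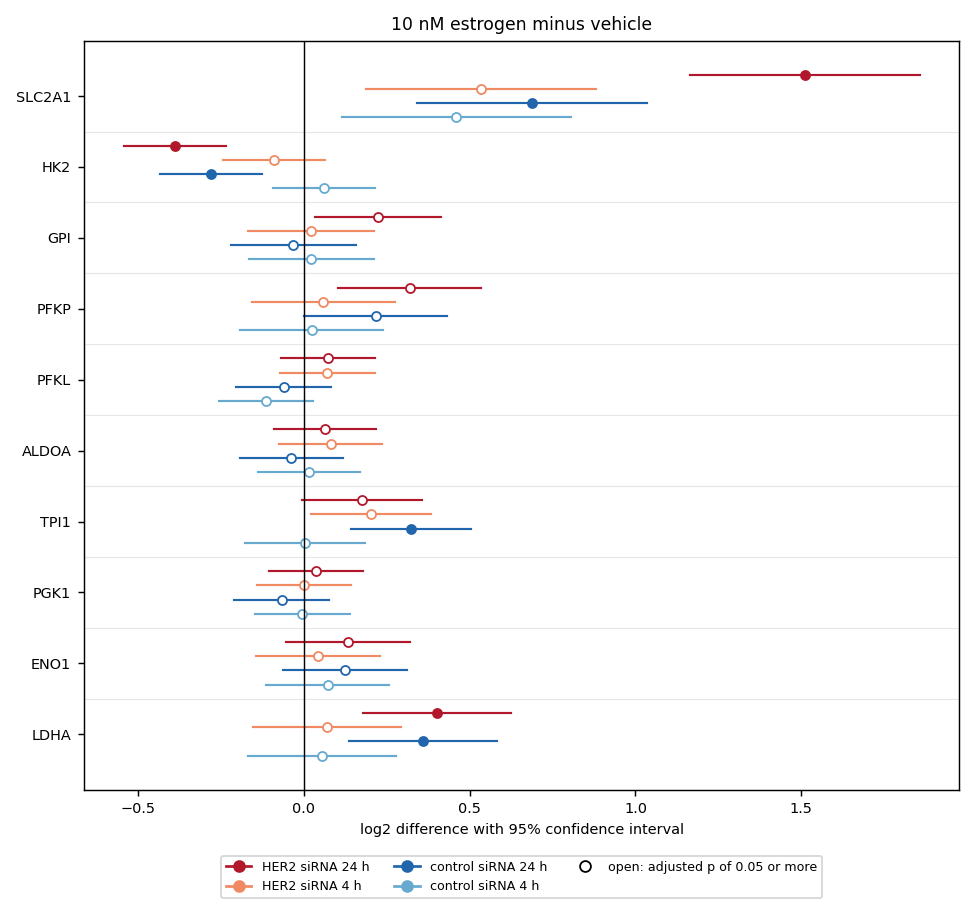
Log2 difference of 10 nM estrogen minus vehicle for each gene with HER2 siRNA or control siRNA at 24 and 4 h, with 95% confidence intervals; filled points have an adjusted p under 0.05. SLC2A1 reaches 1.51 with HER2 siRNA at 24 h and HK2 lies at -0.39, and no 4 h point is filled.

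LDHA also rose with estrogen at 24 h. From the values above, estrogen exceeded vehicle by 0.40 ± 0.11 with HER2 siRNA (limma adjusted p = 0.0267) and by 0.36 ± 0.11 with control siRNA (0.0293). The estrogen and vehicle arrays did not overlap with either siRNA. The call with HER2 siRNA ended without HER2 siRNA vehicle 24 h replicate 3 or HER2 siRNA estrogen 24 h replicate 2 or 3 (0.0998 to 0.124). That with control siRNA ended without control siRNA vehicle 24 h replicate 2 or 3 or control siRNA estrogen 24 h replicate 1 or 2 (0.0514 to 0.142). TPI1 measured 12.83, 12.53 and 12.81 in control siRNA estrogen 24 h, against 12.50, 12.38 and 12.32 in control siRNA vehicle 24 h, a rise of 0.32 ± 0.09 (limma adjusted p = 0.0161). The call ended without control siRNA vehicle 24 h replicate 2 or 3 or control siRNA estrogen 24 h replicate 1 or 3 (0.0534 to 0.0833), and the mean of the 3 TPI1 probe sets gave 0.06 (0.561). With HER2 siRNA the difference was 0.17 ± 0.09. PFKP with HER2 siRNA differed by 0.32 ± 0.10, with a limma adjusted p of 0.0772, and of 0.0159 with the replicate number as a block or 0.0440 without HER2 siRNA estrogen 24 h replicate 1.

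HK2, the inducible hexokinase of many tumours, went the other way. Its brightest probe set, with a mean level of 9.79, measured 9.36, 9.37 and 9.24 in HER2 siRNA estrogen 24 h, against 9.60, 9.75 and 9.78 in HER2 siRNA vehicle 24 h, and 9.64, 9.66 and 9.64 in control siRNA estrogen 24 h, against 10.00, 9.89 and 9.89 in control siRNA vehicle 24 h. The arrays did not overlap in either pair. HK2 differed with estrogen by -0.39 ± 0.07 with HER2 siRNA and by -0.28 ± 0.07 with control siRNA (limma adjusted p = 0.00149 and 0.0137), and the call with control siRNA ended without control siRNA vehicle 24 h replicate 1 (0.0715) or with the GAPDH covariate (0.0721). The arrays of HER2 siRNA estrogen 24 h were the lowest of all 24. At 4 h HK2 measured 9.79, 9.96 and 9.94 in HER2 siRNA estrogen 4 h, 9.92, 10.06 and 9.98 in HER2 siRNA vehicle 4 h, 9.90, 10.03 and 9.88 in control siRNA estrogen 4 h and 9.88, 9.96 and 9.78 in control siRNA vehicle 4 h. These 4 groups overlapped.

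The HER2 siRNA effect on HK2 passed the threshold at 24 h and not at 4 h. It was -0.32 ± 0.07 with estrogen and -0.21 ± 0.07 with vehicle at 24 h (limma adjusted p = 0.00113 and 0.0235), against -0.04 ± 0.07 and 0.11 ± 0.07 at 4 h. The 24 h effect minus the 4 h effect was -0.30 ± 0.07 (0.0291), the only one of the 10 genes called in that comparison, where 2.95% of all genes were. LDHA was called there as well with the replicate number as a block (limma adjusted p = 0.0366), and PFKL under a stricter filter on low levels (0.0442). The HK2 call ended without HER2 siRNA estrogen 24 h replicate 3, HER2 siRNA estrogen 4 h replicate 2, control siRNA vehicle 4 h replicate 3 or control siRNA estrogen 4 h replicate 1 or 3 (0.0507 to 0.0576). The call with vehicle at 24 h ended without control siRNA vehicle 24 h replicate 1 or HER2 siRNA vehicle 24 h replicate 1 (0.104 to 0.126).

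The dimmer HK2 probe sets did not give the same picture. The middle probe set had a mean of 5.32 and the dimmest of 4.74, at or near the minimum level. The dimmest reached 5 on 6 of 24 arrays, all with control siRNA except HER2 siRNA estrogen 4 h replicate 1. In the averaged siRNA comparison all 3 were lower, by -0.12 ± 0.04, -0.25 ± 0.07 and -0.41 ± 0.09. The dimmest passed the filter through its control siRNA arrays, so its lower level with HER2 siRNA adds no support. For estrogen at 24 h, the middle probe set measured 5.23, 5.56 and 5.17 in HER2 siRNA estrogen 24 h, against 5.31, 4.78 and 4.78 in HER2 siRNA vehicle 24 h, and 5.80, 5.67 and 5.84 in control siRNA estrogen 24 h, against 5.33, 5.26 and 5.45 in control siRNA vehicle 24 h. Its differences were 0.36 ± 0.15 and 0.42 ± 0.15, those of the dimmest were 0.27 ± 0.18 and 0.51 ± 0.18, and none passed the threshold (limma adjusted p = 0.228, 0.0734, 0.624 and 0.0763), where 4.28% of all probe sets were called with HER2 siRNA and 9.7% with control siRNA. The fall of HK2 with estrogen was thus read by the brightest probe set alone, and the mean of the 3 probe sets had the opposite sign, 0.08 with HER2 siRNA and 0.22 with control siRNA (0.721 and 0.0609).

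**Figure D4:**
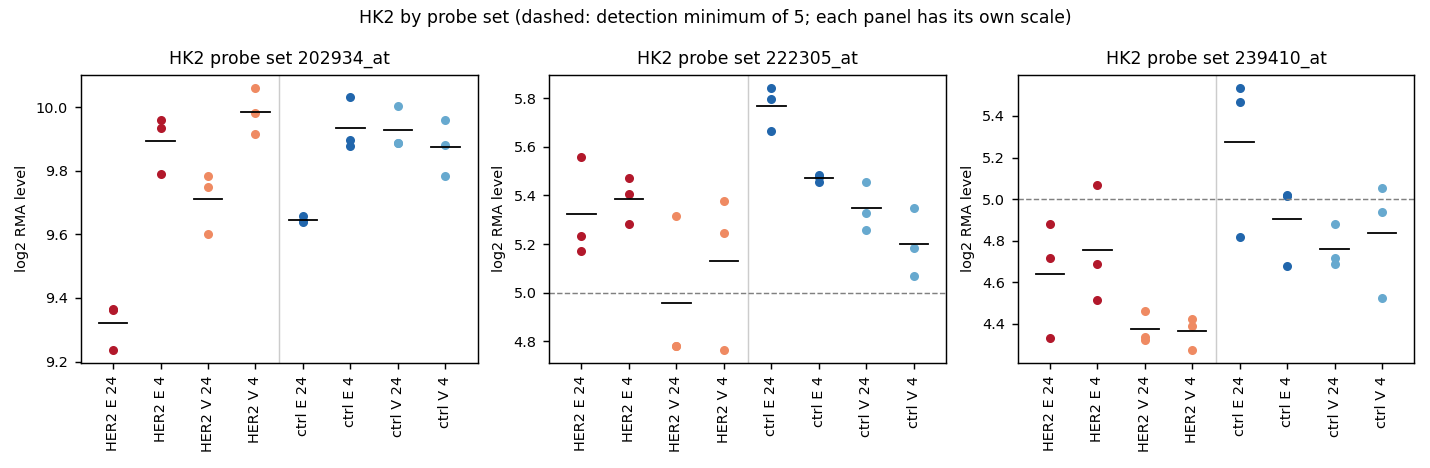
Log2 RMA level of the 3 HK2 probe sets on the 24 arrays, by group; points are arrays, bars are means of 3, each panel has its own scale, and the dashed line in the middle and right panels marks the minimum level of 5. The arrays of HER2 siRNA estrogen 24 h are the lowest in the brightest probe set (left, 9.24 to 9.37) but not in the other panels.

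Between 24 h and 4 h few of the genes moved. In HER2 siRNA with estrogen HK2 was the only one called, at -0.57 ± 0.07 (limma adjusted p = 4.14e-05), where 6.21% of all genes were called. The HK2 values in this paragraph are from its brightest probe set. The mean of its 3 probe sets gave -0.25 here, -0.14 in HER2 siRNA with vehicle and 0.13 in control siRNA with estrogen (0.0518, 0.280 and 0.384). In HER2 siRNA with vehicle SLC2A1 fell by 0.83, HK2 by 0.27 and GPI by 0.34 (limma adjusted p = 0.00556, 0.0302 and 0.0299), where 6.46% of genes were called. All 3 calls ended without HER2 siRNA vehicle 4 h replicate 1 (0.0561, 0.0668 and 0.132), whose SLC2A1 level was the highest of its group. Those of HK2 and GPI also ended without HER2 siRNA vehicle 24 h replicate 2 (0.0615 and 0.0755), that of HK2 without HER2 siRNA vehicle 24 h replicate 1 or HER2 siRNA vehicle 4 h replicate 2 (0.109 and 0.0871), and that of GPI without replicate 3 of either time (0.145 and 0.0510). TPI1 was called higher without HER2 siRNA vehicle 4 h replicate 2 (0.30, 0.0443). With the replicate number as a block PFKP was called as well (-0.26, 0.0431), and 1670 rather than 926 of all genes were. In control siRNA with estrogen HK2 was lower by -0.29 ± 0.07 (0.0238, and 0.0555 to 0.126 without replicate 2 or 3 at 24 h or replicate 1 or 2 at 4 h), where 5.96% of genes were called. No gene of the 10 was called in control siRNA with vehicle, where 0.781% of genes were. At an unadjusted limma p under 0.05 there were 3 of the 10, beside 2058 of all 14335 tested genes. These comparisons share their arrays with the siRNA and estrogen comparisons above.

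Genes whose 8 group means most resembled those of SLC2A1, among 1681 genes outside the 10 whose means span at least 1, were the amino acid transporter SLC7A5 (Pearson r = 0.962), RAB31 (0.929) and PMAIP1 (0.925). SLC7A5 averaged 10.49 ± 0.07 in HER2 siRNA estrogen 24 h, against 8.85 ± 0.28 in HER2 siRNA vehicle 24 h, and 10.53 ± 0.08 in control siRNA estrogen 24 h, against 9.24 ± 0.23 in control siRNA vehicle 24 h (SD, n = 3 each). For HK2 they were PDGFC (0.969), ZMYM5 (0.921) and ST3GAL1 (0.918). These correlations are descriptions over 8 points of the same arrays.

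The rest of the pathway was read from lists of related genes, whose counts for the averaged siRNA effect stand beside the 29.1% of all tested genes that were lower and the 30.1% that were higher. With estrogen at 24 h and control siRNA 6.52% were lower and 7.01% higher. Of 13 tested further enzymes of glycolysis, 7 were lower and 2 higher after HER2 siRNA on average, with a median of -0.12. LDHB, the other lactate dehydrogenase subunit, fell by 1.16 (limma adjusted p = 6.81e-15), PKM, which makes pyruvate and ATP, by 0.75 (2.12e-11) and GAPDH by 0.27 (6.59e-08). LDHB averaged 7.84 ± 0.07 in HER2 siRNA vehicle 24 h and 9.09 ± 0.12 in control siRNA vehicle 24 h (SD, n = 3 each). LDHB, like LDHA, was higher with estrogen at 24 h, by 0.66 with HER2 siRNA and 0.76 ± 0.09 with control siRNA (limma adjusted p = 6.44e-05 and 9.57e-06), and it was the only one of the 13 called with control siRNA. With HER2 siRNA 2 of the 13 were called, where 6.17% of all genes were. They were LDHB and PKM, which was higher by 0.62 ± 0.10 (0.000255). With control siRNA PKM differed by 0.18 ± 0.10 (0.264) and BPGM by -0.21 ± 0.09 (0.147).

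Of 5 tested further glucose transporter genes, 3 were higher and 2 lower after HER2 siRNA. The higher ones were SLC2A13 (1.17 ± 0.07), which carries myo-inositol, SLC2A10 (0.48 ± 0.04) and SLC2A12 (0.46 ± 0.05) (limma adjusted p = 6.57e-12, 4.46e-10 and 4.93e-08). The lower ones were SLC2A8 (-0.36 ± 0.05) and SLC2A6 (-0.44 ± 0.07). SLC2A10 and SLC2A13 were lower with estrogen at 24 h with control siRNA, by -0.53 ± 0.08 and -0.97 ± 0.15, the opposite direction to SLC2A1. All 3 tested genes of lactate and pyruvate transport were lower after HER2 siRNA. They were both subunits of the mitochondrial pyruvate carrier, MPC1 (-0.70 ± 0.05) and MPC2 (-0.47 ± 0.04), and BSG (-0.40 ± 0.04), the chaperone of the lactate transporters. Neither MPC1 (-0.11 ± 0.09) nor MPC2 (0.07 ± 0.07) was called for estrogen at 24 h with control siRNA.

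Beyond pyruvate, 4 of 5 pyruvate dehydrogenase genes were lower, among them DLAT (-0.76 ± 0.04), DLD (-0.23 ± 0.03) and PDHB (-0.14 ± 0.05), and none was higher. The call of PDHB ended with the GAPDH covariate (limma adjusted p = 0.435). Of 11 regulators of flux 5 were lower and 3 higher, where 29.1% of all genes were lower and 30.1% higher. PDK2, a kinase that switches pyruvate dehydrogenase off, rose by 0.78 ± 0.04, PDK3, another, fell by 0.59, and PDPR, a regulator of the phosphatase that switches it on, rose by 0.81 ± 0.06. With estrogen at 24 h and control siRNA, PDP1 was lower (-0.53 ± 0.11) and PFKFB3, which makes an activator of phosphofructokinase, was higher (0.49 ± 0.16, limma adjusted p = 0.0383, and 0.0782 with the GAPDH covariate). Of 6 pentose phosphate genes 4 were lower, such as PGD (-0.56 ± 0.07) and RPE (-0.49 ± 0.05), and 1 was higher, RPIA (0.24 ± 0.04), which also rose with estrogen at 24 h with control siRNA (0.33 ± 0.08).

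**Figure D5:**
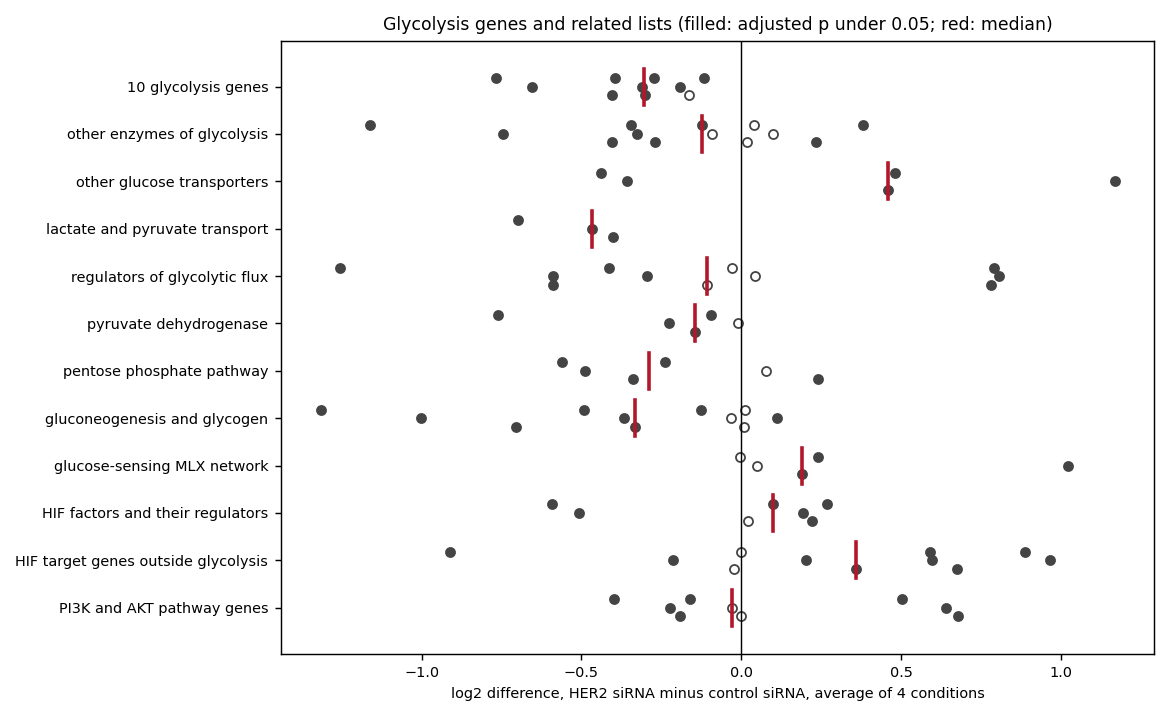
Average log2 difference of HER2 siRNA minus control siRNA for the 10 glycolysis genes and for 11 lists of related genes; each point is a gene, filled with an adjusted p under 0.05, and red lines are medians. The 10 genes have a median of -0.31, and HIF target genes outside glycolysis one of 0.36.

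Of 11 tested gluconeogenesis and glycogen genes 7 were lower and 1 was higher, with a median of -0.33, where 29.1% of all genes were lower and 30.1% higher. PGM1, which links glycogen to glucose 6-phosphate, fell by 1.32, PC, which carboxylates pyruvate, by 1.00 and GBE1, the glycogen branching enzyme, by 0.71. In the MLX network, which senses glucose phosphates, 3 of 5 genes were higher and none lower. TXNIP, a brake on glucose uptake, averaged 12.55 ± 0.21 in HER2 siRNA estrogen 24 h and 11.45 ± 0.02 in control siRNA estrogen 24 h (SD, n = 3 each) and rose by 1.02 ± 0.05 over the 4 conditions (limma adjusted p = 5.05e-13). MLXIP (0.24 ± 0.05) and MLX (0.19 ± 0.04) rose less, and the call of MLX ended with the GAPDH covariate (0.339).

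HIF1A, the oxygen-regulated subunit, averaged 11.90 ± 0.09 in HER2 siRNA estrogen 24 h and 12.52 ± 0.12 in control siRNA estrogen 24 h (SD, n = 3 each) and fell by 0.51 over the 4 conditions (limma adjusted p = 2.98e-09). EGLN1, the main prolyl hydroxylase of HIF, fell by 0.59, and ARNT, the partner of HIF1A, rose by 0.27. Of 7 HIF factors and regulators 4 were higher and 2 lower, and of 11 tested HIF target genes outside glycolysis 7 were higher and 2 lower, with a median of 0.36, beside 30.1% and 29.1% of all genes. KDM3A (0.89 ± 0.04), a histone demethylase, NDRG1 (0.96 ± 0.05), a stress-induced growth regulator, and BNIP3 (0.59 ± 0.03), a mitophagy receptor, were among the higher. With estrogen at 24 h and control siRNA, 5 of the 11 were lower and none higher, where 6.52% of all genes were lower and 7.01% higher, such as NDRG1 (-0.70 ± 0.10) and DDIT4 (-0.76 ± 0.11). EGLN1 (-0.41 ± 0.11) and EPAS1 (-0.45 ± 0.11) were lower there too, and the call of EPAS1 ended with the mean of its probe sets (-0.11, limma adjusted p = 0.309). Of the 9 PI3K and AKT pathway genes 3 were higher, such as TSC1 (0.68 ± 0.05) and RICTOR (0.64 ± 0.06), and 4 lower, such as RHEB (-0.40 ± 0.04), where 30.1% of all genes were higher and 29.1% lower. MYC itself differed by 0.25 ± 0.12 between the siRNAs on average (limma adjusted p = 0.0810) and rose with estrogen at 24 h by 3.84 ± 0.24 with HER2 siRNA and 2.93 ± 0.24 with control siRNA.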

How the data were processed

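Gene expression in BT-474 cells was measured on 24 arrays, 3 in each of 8 groups, and the authors deposited log2 values per probe set made with RMA, per the submitters' processing notes. RMA corrects background and sets the distributions of the arrays equal, so differences are relative to the other genes. Signal over background limits the precision of dim probe sets. Of 54675 probe sets, 41091 had 1 gene symbol, 1801 several and 11721 none, and 62 were controls; symbols come from GEO's platform annotation. All columns of values were used (0 unused). Each gene was read from its brightest probe set, and 14335 of 19775 genes with a log2 level of at least 5 in at least 3 arrays were fitted in limma 3.58.1 (R 4.3.3), with 1 mean per group over all 24 arrays (prior df 4.92) and Benjamini-Hochberg adjustment over all genes in each of 16 comparisons, at 0.05. The moderated test was checked on simulated data. Named are the 10 members, ERBB2, GAPDH, MYC and HIF1A, in each list up to 3 genes with the smallest adjusted p for the averaged siRNA effect and up to 2 for estrogen at 24 h with control siRNA, and the 3 genes most like HK2 and SLC2A1. The members and lists were chosen with earlier results of these data known. The replicate numbers, from the titles, were checked as pairs by correlating deviations from the group means, and in 5 of 12 comparisons of 2 groups every pair was over 0.1. These were HER2 siRNA against control siRNA with estrogen at 4 h and with vehicle at both times, estrogen against vehicle with HER2 siRNA at 24 h, and 24 h against 4 h in HER2 siRNA with vehicle. Alternatives covered the filter, the replicate block, the probe set rule, scaling, the variance prior, RNA quality, the samples in the fit and each array left out in turn.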

Additional observations from a re-analysis of the deposited data

Results flagged for a closer look

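The HER2 siRNA effect differed between 24 h and 4 h by a test of the difference itself in 3 named genes, all in values averaged over estrogen and vehicle. HK2 had a 24 h effect lower than its 4 h effect, by -0.30 ± 0.07 (limma adjusted p = 0.0291). EPAS1, which encodes HIF2A, had a 24 h effect higher by 0.56 ± 0.11 (0.00713). It averaged 9.30 in HER2 siRNA estrogen 24 h and 8.83 in control siRNA estrogen 24 h, and 9.37 in HER2 siRNA estrogen 4 h and 9.45 in control siRNA estrogen 4 h. The EPAS1 call for estrogen at 24 h with control siRNA ended with the mean of its probe sets (-0.11, limma adjusted p = 0.309). That for its averaged siRNA effect ended with the GAPDH covariate (0.13, 0.269). The EPAS1 difference between times was not read under these alternatives. NDRG1 had a 24 h effect higher by 0.40 ± 0.10 (0.0313). It averaged 10.46 in HER2 siRNA estrogen 24 h and 9.15 in control siRNA estrogen 24 h, and 10.56 in HER2 siRNA estrogen 4 h and 9.76 in control siRNA estrogen 4 h.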

How the results depend on the processing

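Of 52 calls among the 10 genes, 52 were kept under a stricter filter, equal medians, an intensity trend and the replicate block (which gained 10), 51 without a filter, 50 with GAPDH 3′ to 5′ as a covariate, 49 after quantile normalisation, 46 without the 3 arrays numbered apart and 44 with probe sets of a gene averaged. With only the compared groups in the fit, 30 of 42 were kept. The cause of these changes was not tested. With the mean of probe sets the HK2 difference reversed, to 0.081 for estrogen with HER2 siRNA at 24 h, 0.22 for estrogen with control siRNA at 24 h and 0.13 for 24 h against 4 h in control siRNA with estrogen (limma adjusted p = 0.721, 0.0609 and 0.384).

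The numbers of the 10 genes called moved as follows. For estrogen with HER2 siRNA at 24 h, 3 became 1 with only the compared groups, and at 4 h 0 became 1 with the replicate block, alone or with the number series. For estrogen with control siRNA at 24 h, 4 became 2 with the mean of probe sets and 1 with only the compared groups or without the 3 arrays. For the difference in estrogen effect at 24 h, 0 became 1 with either block, SLC2A1 (limma adjusted p = 0.0251 and 0.0278). For the siRNA effect at 24 h minus 4 h, 1 became 2 with the stricter filter (PFKL, limma adjusted p = 0.0442) or the block (LDHA, 0.0366). For 24 h against 4 h, 1 became 0 with the mean of probe sets in HER2 siRNA with estrogen. In HER2 siRNA with vehicle 3 became 1 with the mean of probe sets and 0 with only the compared groups. In control siRNA with estrogen 1 became 0 under both. In control siRNA with vehicle 0 became 2 with the block, 1 with the block and number series and 1 with the trend. Of the 3 HK2 probe sets called, 1 remained with the stricter filter and 1 with the GAPDH covariate. Leaving out 1 array at a time, the counts were 9 to 10 for the averaged siRNA effect, 6 to 8 with estrogen at 24 h, 6 to 7 at 4 h, 7 to 8 with vehicle at 24 h and 5 to 8 at 4 h. For estrogen they were 2 to 4 with HER2 siRNA and 2 to 4 with control siRNA at 24 h, and 0 to 1 and 0 to 0 at 4 h. They were 0 to 1 for the siRNA effect at 24 h minus 4 h. For 24 h against 4 h they were 1 to 1 in HER2 siRNA with estrogen, 0 to 3 with vehicle, 0 to 1 in control siRNA with estrogen and 0 to 0 with vehicle. In all, 1187 calls were kept and 61 lost.

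Counts over all genes, and the shares of them printed above, also moved by more than 1.5 times. With only the compared groups, estrogen with HER2 siRNA gave 458 instead of 885 at 24 h and 28 instead of 100 at 4 h, where the block gave 153. The block gave 76 instead of 49 with control siRNA at 4 h. Without the 3 arrays, estrogen with control siRNA at 24 h gave 1151 instead of 1939. With the block, the difference in estrogen effect at 24 h gave 34 instead of 9 (4 with the compared groups, 16 with the trend), and the siRNA effect at 24 h minus 4 h gave 829 instead of 423. For 24 h against 4 h, the block and the compared groups alone gave 1514 and 379 instead of 890 in HER2 siRNA with estrogen, 1670 and 52 instead of 926 with vehicle, 1437 and 439 instead of 855 in control siRNA with estrogen, and 448 and 43 instead of 112 with vehicle (187 with the stricter filter, 43 without the 3 arrays). Without the 3 arrays HER2 siRNA with estrogen gave 507.

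Leaving out 1 array did so too. Estrogen with HER2 siRNA gave 587 or 551 without HER2 siRNA estrogen 24 h replicate 2 or 3, and 64 at 4 h without HER2 siRNA estrogen 4 h replicate 3. With control siRNA at 4 h it gave 31 without vehicle replicate 3 and 30 or 27 without estrogen replicate 2 or 3. The difference in estrogen effect at 24 h gave 17 or 5 without HER2 siRNA estrogen 24 h replicate 1 or 2. The siRNA effect at 24 h minus 4 h gave 278 or 261 without HER2 siRNA estrogen 24 h replicate 2 or 3, and at 4 h with vehicle 275 without replicate 1 of HER2 siRNA and 262 without replicate 2 of control siRNA. For 24 h against 4 h, HER2 siRNA with estrogen gave 547 or 422 without replicate 2 or 3 at 24 h and 506 or 540 without replicate 1 or 2 at 4 h. HER2 siRNA with vehicle gave 406 or 407 without replicate 2 or 3 at 24 h and 208 without replicate 1 at 4 h. Control siRNA with estrogen gave 371 or 296 without replicate 2 or 3 at 24 h and 378, 374 or 535 without replicate 1, 2 or 3 at 4 h. Control siRNA with vehicle gave 23, 29 or 6 without replicate 1, 2 or 3 at 24 h and 9, 21 or 60 without replicate 1, 2 or 3 at 4 h. For HER2 siRNA against control siRNA no count moved that far.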
